A study of Mus musculus with 4 samples.

Results

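Receptor tyrosine kinases other than the FGF receptors were followed after depletion of Usp22 in E14, an established mouse embryonic stem cell line. A list of 47 genes was set by name, and the array annotation gave 46 of them a probe set that carries their symbol alone. Ephb2 was not analysed here. These 46 genes stand among 19938 genes measured in all. Where a gene had several probe sets (Insr and Ephb1, with 2 each), the brightest was used. Met was already known to be among the genes that rose most in these data when the set was chosen, so its rise is a description and not independent evidence.

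Usp22 is the deubiquitinating enzyme of the coactivator complex SAGA. Depleted cells carried a lentiviral shRNA against Usp22, and control cells carried an shRNA against Luc, with 2 one-colour Affymetrix arrays in each group. The cells of both groups were cultured feeder-free on gelatin, with serum, LIF and 2i, which here was PD0325901 (1 µM), an inhibitor of MEK, with CH99021 (3 µM), an inhibitor of GSK3. The labels name neither the number of shRNAs nor whether the replicates came from separate cultures, so each p-value reflects the scatter of these arrays alone, and that scatter may be technical. MEK lies downstream of most of these receptors, and its inhibitor was present in both groups.

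Receptor tyrosine kinases are membrane proteins that bind a ligand outside the cell, pair up, and phosphorylate each other on tyrosines inside it. Adaptors such as Grb2 and Gab1 dock on these tyrosines and carry the signal to Ras, to the MEK and ERK kinases and to PI3-kinase. Cbl ubiquitin ligases, Lrig1 and tyrosine phosphatases end the signal. In mouse embryonic stem cells, ERK signalling is known to move cells out of the naive state, which is why a MEK inhibitor is part of 2i. Met is the receptor of hepatocyte growth factor and is best known from epithelial cell movement and branching.

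To show the DNA upstream of the genes on which the results turn, the 250 bases before the annotated start are printed 5′ to 3′ from RefSeq (build GRCm38.p6), with CpG dinucleotides in capitals. Met is the only member that passed the test. Tek and Mertk stood next after it among genes whose groups did not overlap. Kit and Epha4 were above background on every array and stood on opposite sides of 0. The window lies at chr6:17463707-17463956 (+ strand) for Met, chr4:94739039-94739288 (+ strand) for Tek, chr2:128698665-128698914 (+ strand) for Mertk, chr5:75574737-75574986 (+ strand) for Kit and chr1:77515089-77515338 (− strand) for Epha4.
Met: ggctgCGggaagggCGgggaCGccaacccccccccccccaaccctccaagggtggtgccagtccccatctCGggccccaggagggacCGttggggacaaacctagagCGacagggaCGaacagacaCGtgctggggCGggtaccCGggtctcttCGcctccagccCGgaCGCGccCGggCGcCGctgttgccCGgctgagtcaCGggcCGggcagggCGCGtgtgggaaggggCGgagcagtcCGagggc
Tek: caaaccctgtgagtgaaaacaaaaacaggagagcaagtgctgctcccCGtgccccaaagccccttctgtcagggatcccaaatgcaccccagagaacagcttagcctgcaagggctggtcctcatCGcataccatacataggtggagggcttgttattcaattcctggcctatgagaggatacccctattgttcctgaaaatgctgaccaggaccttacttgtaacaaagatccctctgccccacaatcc
Mertk: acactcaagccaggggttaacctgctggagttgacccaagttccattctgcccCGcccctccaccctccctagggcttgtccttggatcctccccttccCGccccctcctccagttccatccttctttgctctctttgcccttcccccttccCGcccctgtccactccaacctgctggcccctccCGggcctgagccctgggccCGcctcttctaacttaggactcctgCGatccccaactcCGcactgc
Kit: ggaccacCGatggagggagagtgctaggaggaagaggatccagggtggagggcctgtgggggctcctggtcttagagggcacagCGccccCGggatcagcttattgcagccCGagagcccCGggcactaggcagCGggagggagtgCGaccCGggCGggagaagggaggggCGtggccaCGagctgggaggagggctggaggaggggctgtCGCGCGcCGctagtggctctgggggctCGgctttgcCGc
Epha4: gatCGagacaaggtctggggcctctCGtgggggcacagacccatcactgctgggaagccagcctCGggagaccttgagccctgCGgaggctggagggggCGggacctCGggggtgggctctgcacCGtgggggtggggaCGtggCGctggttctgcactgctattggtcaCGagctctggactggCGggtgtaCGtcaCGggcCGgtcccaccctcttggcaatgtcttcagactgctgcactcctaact

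The Met window held 24 CpG dinucleotides, the Kit window 17 and the Epha4 window 14, against 7 for Mertk and 2 for Tek. Entries were found for 39 of the 46 genes, and of several starts of a gene the most upstream was taken. Their median was 14 CpG dinucleotides, against 11 over 15614 measured genes. The E-box CACGTG, searched on both strands, lay in the window of Met and in 2 of 39 members in all, against 7.04% of measured genes and 6.04% of all 27025 promoters. The motif GGGCGG, searched on both strands, lay in 15 of 16 members above the background described next and in 12 of 23 members not above it, against 59.2% and 32.9% of all measured genes above and not above it, and 33.0% of all promoters. GGGCGG contains 1 CpG, so the CpG and GGGCGG counts overlap. TATAAA lay in 3 of 39 members, against 11.2% of measured genes. The Met window held both CACGTG and GGGCGG, the Tek window neither. A match describes the letters of a window and not a bound site.

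All signals below are log2 intensities after quantile normalization of the deposited values. Differences are depleted minus control, from limma fitted over all genes with Benjamini-Hochberg adjustment, and rose or fell is written where the adjusted p was under 0.05. Every gene had the same standard error of 0.27 because the fit's prior degrees of freedom were infinite, and the smallest called change was 0.86. Signals of olfactory and vomeronasal receptor genes (1194 genes) served as a yardstick for a gene that is off. The 95th percentile of their means, 6.99, is called the olfactory background. With 2 arrays in each group the smallest p of an exact permutation test is 0.333, so that test was not used for single genes. Probe sets differ in how they respond, so signals of different genes are set against this background and not against each other.

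Usp22 itself read 8.23 and 8.29 in depleted cells, against 9.41 and 9.36 in control cells (log2 fold change −1.12, limma adjusted p = 0.00826). All 10 pluripotency markers tested (Pou5f1, Sox2, Nanog, Esrrb, Zfp42, Dppa5a, Tdgf1, Fgf4, Utf1 and Sall4) were above the olfactory background, and 0 of them rose or fell. At an unadjusted limma p under 0.05, 1 of 10 differed, beside 22.1% of all genes. Of these markers, 4 were higher and 4 lower without overlap, beside 36.8% and 37.7% of all genes above that background. The summed intensity of the 10 markers was 14456 and 14927 in depleted cells, against 15483 and 15612 in control cells. Array medians ran from 110 to 128 in intensity. Control replicate 2 stood apart, since it was the highest or the lowest of the 4 arrays for 80.5% of all genes and for 34 of the 46 members. For the members given array by array, the value without it is therefore given too, or the range over all fits with 1 array left out.

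Of the 46 members, 1 rose and 0 fell, where 2.62% of all genes rose and 0.105% fell. At an unadjusted p under 0.05, 7 of 46 differed, against 22.1% of all genes. The median log2 fold change of the members was −0.20, beside −0.12 over all genes. By their mean over the 4 arrays, 18 of the 46 members were above the olfactory background, as were 48.8% of all genes. The members therefore showed no larger share of calls than genes at large, and the one that rose was not among the 18.

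Met passed the test with a higher signal in depleted cells, from signals that all lay at the dim end of the array. Its normalized signal was 6.99 and 6.52 in depleted cells, against 5.95 and 4.70 in control cells, or 6.75 ± 0.33 against 5.32 ± 0.88 (SD, n = 2 each). In deposited intensities these were 118 and 88.8 in depleted cells, against 63.9 and 26.6 in control cells. Both depleted arrays lay above both control arrays, and control replicate 2 was the lowest by far. The log2 difference of these signals was 1.43 (95% interval 0.90 to 1.96, limma adjusted p = 0.000245).

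All 4 Met signals were under the olfactory background, the higher depleted one by less than the rounding shown. On the depleted arrays Met lay above 96.9% and 90.6% of the olfactory and vomeronasal receptor genes, and on control arrays 1 and 2 above 68.8% and 6.03% of them. Of those 1194 genes, 1 rose (0.0838%) and 1 fell, and 0 had a log2 fold change as large as that of Met. In the whole table, 6 genes, Met included, reached that value. The rise of Met was known when the set was chosen, so its place in these comparisons is a description. With both groups under the background, the difference of 1.43 describes signals on these arrays, and its size in transcript cannot be read from it. The interval uses the standard error that all genes shared. It covers neither the spread of Met's own arrays nor this limit.

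The call for Met depended on which arrays entered. Without control replicate 2 the log2 fold change was 0.80 (limma adjusted p = 0.119), and without control replicate 1 it was 2.06 (limma adjusted p = 6.85e-07). In each such fit the spread comes only from the group that keeps both arrays, and the lone array is assumed to vary like them. Leaving out a depleted array ended the call, with a log2 fold change of 1.20 without replicate 1 (limma adjusted p = 0.830) and of 1.66 without replicate 2 (limma adjusted p = 0.109). Those last 2 fits called 0% and 0.00502% of all genes, with 2.95% and 9.86% at an unadjusted limma p under 0.05, so calls were lost there for nearly every gene. Met is left out when the dimmest 0.25 of genes are dropped, and then 0 of 35 members rose or fell, beside 4.94% of the remaining genes that rose and 0.241% that fell.

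**Figure D1:**
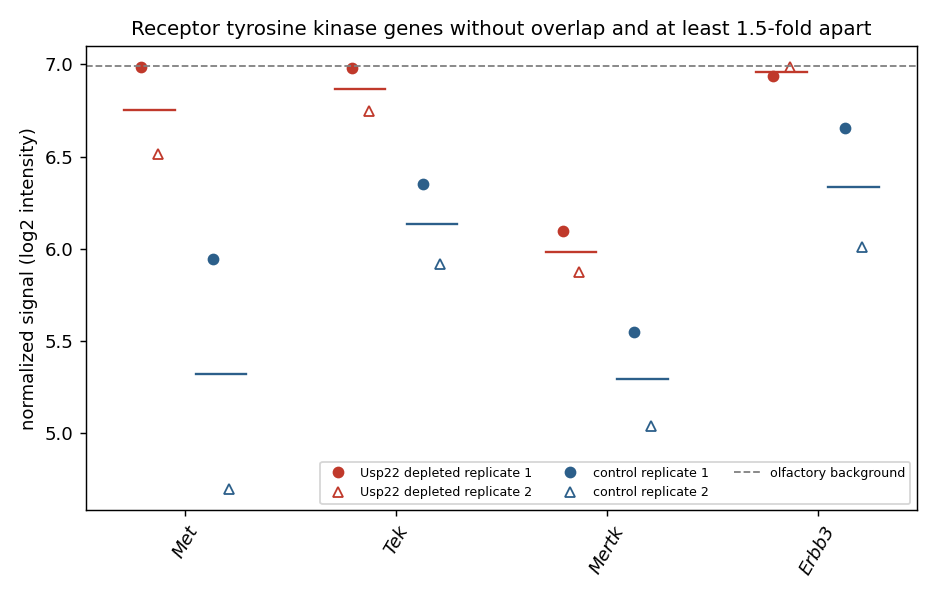
Normalized log2 intensity (vertical axis) of Met, Tek, Mertk and Erbb3 on each array, Usp22-depleted cells left of control cells, with bars at group means of 2 arrays and a dashed line at the olfactory background of 6.99. All 16 points lie under the dashed line, and for each gene both depleted points lie above both control points.

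Mst1r, the other receptor of the hepatocyte growth factor family, binds macrophage-stimulating protein. It read 7.51 and 7.50 in depleted cells, against 7.33 and 8.08 in control cells, so the depleted values lay between the control values. Its log2 fold change was −0.20 (limma adjusted p = 0.603), and 0.17 without control replicate 2. Genes that act with Met gave 0 further calls among 15, from a list of 16 that held its ligand, the proteases and inhibitors that control ligand activation, co-receptors and adaptors. The adaptor gene Gab1 read 10.1 and 10.2 in depleted cells, against 10.5 and 10.5 in control cells (−0.39, limma adjusted p = 0.331). Gab1 was called lower when limma let the variance depend on signal (an intensity trend), with or without robust settings. Hgf, the ligand of Met, was under the olfactory background on every array and read 5.82 and 5.95 in depleted cells, against 6.10 and 6.53 in control cells (log2 fold change −0.43, limma adjusted p = 0.299, and −0.21 without control replicate 2). Of that list, Plxnb1, a semaphorin receptor that associates with Met, stood at −0.59, Ranbp9, a scaffold protein, at 0.51, and the integrin gene Itgb4 at −0.48 (limma adjusted p = 0.183, 0.236 and 0.257). Plxnb1 and Ranbp9 did not overlap between groups, and Itgb4 did. Itgb4 stood at −0.03 without control replicate 2.

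Beside Met, the genes without overlap and at least 1.5-fold apart in signal were Tek, Mertk and Erbb3, all higher in depleted cells, and none passed the test. These 4 of 46 stand beside 12.1% of all genes that met this description in the higher direction, and 0 of 46 beside 3.35% in the lower direction. Without regard to size, 9 members were higher without overlap (27.4% of all genes), 16 were lower (33.3% of all genes) and 21 overlapped.

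Tek encodes Tie2, the angiopoietin receptor, and Tie1 its partner, both known from endothelial cells. Tek read 6.98 and 6.75 in depleted cells, against 6.35 and 5.92 in control cells (log2 fold change 0.73, 95% interval 0.20 to 1.25, limma adjusted p = 0.102, and 0.51 without control replicate 2). Tie1 read 6.48 and 6.25 in depleted cells, against 6.83 and 6.98 in control cells (log2 fold change −0.54, limma adjusted p = 0.213, and −0.47 without control replicate 2). The partners thus stood on opposite sides of 0, each without overlap and each under the olfactory background on every array. Angpt1, which encodes a ligand of Tie2, fell by the test, at 7.52 and 7.60 in depleted cells, against 7.74 and 10.3 in control cells. That fall (log2 fold change −1.48, limma adjusted p = 0.000137) rested on control replicate 2, and the value was −0.19 without that array. Angpt2, which encodes a second Tie2 ligand, read 6.61 and 6.77 in depleted cells, against 7.23 and 7.42 in control cells (−0.64, limma adjusted p = 0.153).

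The receptors of vascular endothelial growth factor, Flt1, Kdr and Flt4, had log2 fold changes of −0.39, 0.23 and 0.10. Flt1 did not overlap between groups, Kdr and Flt4 did, and none was above the olfactory background by its mean. The endothelial marker list, fixed with the other lists, had 5 of 10 genes above it (Plvap, Erg, Vwf, Cldn5 and Egfl7), with Cdh5 and Emcn under it. Its summed intensity was 1323 and 1479 in depleted cells, against 1578 and 1772 in control cells. In bulk RNA, fewer cells of a type and less RNA per cell cannot be told apart, and the part of endothelial-type transcripts in the values of Tek, Tie1 and Flt1 was not tested.

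Mertk, Axl and Tyro3 encode the TAM receptors, which bind Gas6 and, for some of them, protein S, and clear dying cells. Mertk read 6.10 and 5.87 in depleted cells, against 5.55 and 5.04 in control cells (log2 fold change 0.69, limma adjusted p = 0.121). Leaving out control replicate 2 gave 0.43 for Mertk, and leaving out control replicate 1 gave 0.95. Tyro3 read 7.44 and 7.46 in depleted cells, against 7.52 and 6.59 in control cells (log2 fold change 0.40, limma adjusted p = 0.327). Control replicate 1 of Tyro3 lay with the depleted arrays, and without control replicate 2 the value turned to −0.07. Axl, at −0.11, ran from −0.52 without control replicate 1 to 0.30 without control replicate 2. Pros1, which encodes protein S, rose to 6.87 and 6.63 in depleted cells, against 6.07 and 5.69 in control cells (log2 fold change 0.87, limma adjusted p = 0.0481). Pros1 stood at 0.67 without control replicate 2 and was not called, and it was under the olfactory background on every array.

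Among the ErbB receptors, which bind EGF and neuregulins, none of the 4 was above the olfactory background by its mean over the 4 arrays. Erbb3, a receptor with little kinase activity of its own that pairs with Erbb2, read 6.94 and 6.98 in depleted cells, against 6.66 and 6.01 in control cells (log2 fold change 0.63, limma adjusted p = 0.158). Its value was 0.31 without control replicate 2. Egfr, Erbb2 and Erbb4 stood at −0.27, −0.11 and −0.37, and of these Egfr and Erbb4 did not overlap between groups. Nrg1, which encodes a ligand of Erbb3 and Erbb4, read 7.06 and 7.41 in depleted cells, against 7.48 and 8.36 in control cells (log2 fold change −0.69, limma adjusted p = 0.122, and −0.25 without control replicate 2).

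**Figure D2:**
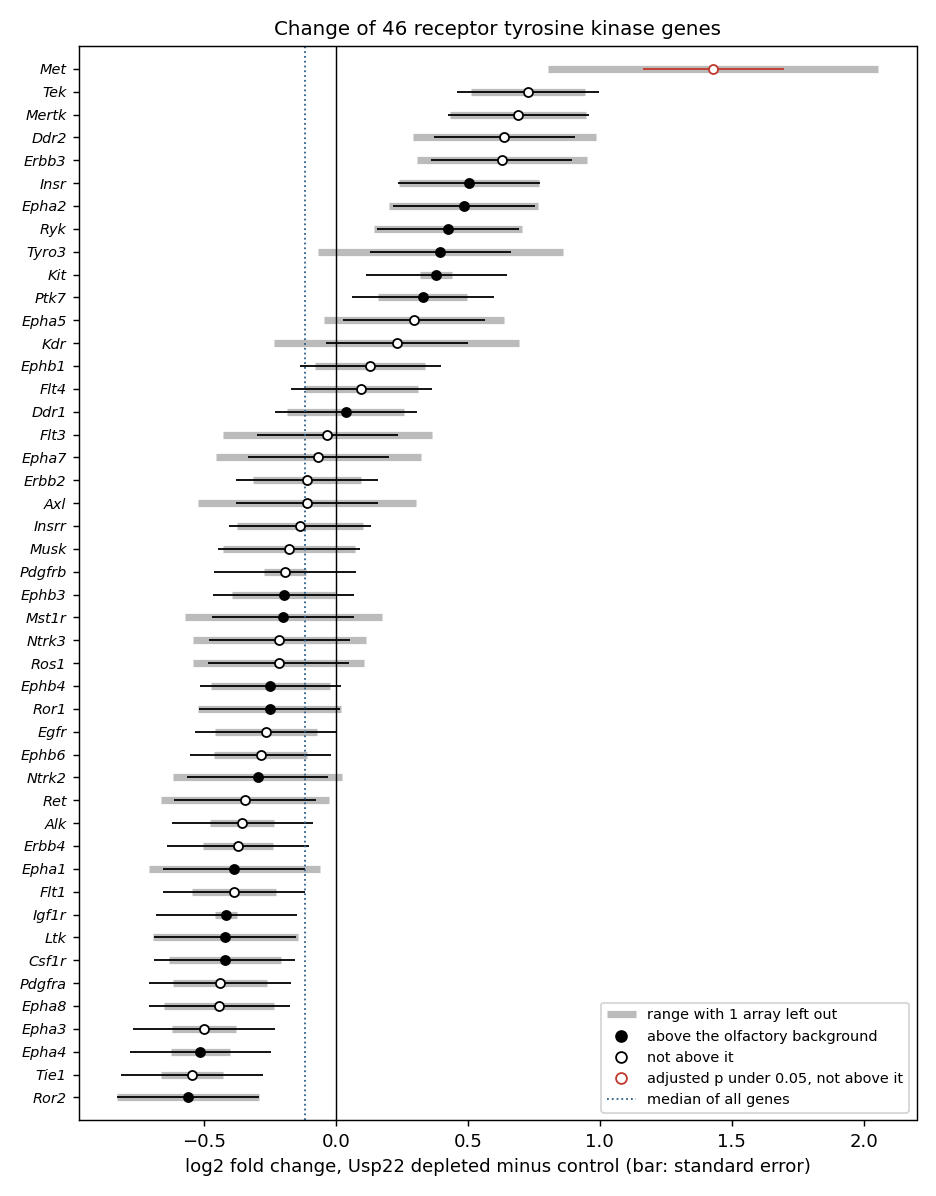
Log2 fold change (horizontal axis, depleted minus control) of the 46 receptor tyrosine kinase genes, 1 row per gene, with the standard error of 0.27 as a thin bar, the range over fits with 1 array left out as a grey band, filled points for genes above the olfactory background and a dotted line at the median of all genes (−0.12). Met, in red, lies at 1.43 and is the only gene past the test, while the other 45 lie between −0.56 and 0.73.

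Members above the olfactory background gave 0 calls among 18, with 5 higher and 6 lower without overlap, where 1.97% of all 9736 genes above it were called in either direction and 36.8% were higher and 37.7% lower without overlap. Of the 18, 1 (Ror2) had an unadjusted limma p under 0.05, beside 22.1% of all 19938 genes, which include those not above the background. Kit, the receptor of stem cell factor, which marks germ cells and pluripotent cells, read 9.01 and 8.91 in depleted cells, against 8.64 and 8.52 in control cells. Both depleted arrays were higher, and the gap held within 0.32 to 0.44 when any 1 array was left out. The log2 fold change of Kit was 0.38 (95% interval −0.14 to 0.91, limma adjusted p = 0.344). Pdgfra and Kdr lie on either side of Kit on chromosome 5 in the RefSeq annotation of GRCm38.p6, with 0 protein-coding genes between, and neither was above the background. Pdgfra, a marker of primitive endoderm, read 5.82 and 6.01 in depleted cells, against 6.18 and 6.53 in control cells (−0.44, limma adjusted p = 0.288, and −0.26 without control replicate 2). Of 10 primitive endoderm markers, 6 were above the background and 0 rose or fell. The summed intensity of all 10 was 2222 and 2227 in depleted cells, against 2041 and 2032 in control cells. Gene by gene, 3 were higher and 5 lower without overlap, beside 27.4% and 33.3% of all genes. The median log2 fold change of these markers was −0.21. Csf1r, the macrophage growth factor receptor, read 7.04 and 7.36 in depleted cells, against 7.41 and 7.84 in control cells (−0.42, limma adjusted p = 0.305, and −0.21 without control replicate 2). Haematopoietic markers were nearly all dim, with 1 of 7 above the background (Cd3e) and Ptprc and Spi1 under it. Their summed intensity was 692 and 707 in depleted cells, against 791 and 1016 in control cells, and its part in the value of Csf1r was not tested. Flt3 and Pdgfrb, the other members of that receptor class, were under the background at −0.03 and −0.19.

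The insulin receptor gene and the gene of its relative Igf1r, both of which control growth and glucose use, stood on opposite sides of 0. Insr read 8.13 and 7.82 in depleted cells, against 7.73 and 7.21 in control cells (log2 fold change 0.51, limma adjusted p = 0.240). A second Insr probe set gave 0.53. Igf1r read 7.59 and 7.59 in depleted cells, against 7.96 and 8.05 in control cells (log2 fold change −0.42, 95% interval −0.94 to 0.11, limma adjusted p = 0.310). The Igf1r arrays lay close together within each group, and its value stayed between −0.46 and −0.37 with any 1 array left out. With each array centred on its median instead of quantile-normalized, Igf1r stood at −0.28. Insr moved to 0.24 without control replicate 2. Insrr, a related receptor, was under the background at −0.14.

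Eph receptors bind ephrins on neighbouring cells and sort cells at boundaries. Of 11 measured, 0 were called, 1 was higher and 5 were lower without overlap, where 27.4% of all genes were higher and 33.3% lower. Epha4 read 8.59 and 8.81 in depleted cells, against 9.26 and 9.17 in control cells (log2 fold change −0.51, 95% interval −1.04 to 0.01, limma adjusted p = 0.235). Its value lay between −0.62 and −0.40 with any 1 array left out. With each array centred on its median instead of quantile-normalized, Epha4 stood at −0.31. Epha2, which is present in embryonic stem cells, read 7.84 and 7.77 in depleted cells, against 7.60 and 7.04 in control cells (0.48, limma adjusted p = 0.255, and 0.20 without control replicate 2). Epha1 read 7.81 and 7.87 in depleted cells, against 7.90 and 8.55 in control cells (−0.39, and −0.06 without control replicate 2). The 3 type A receptors above the background thus had 2 lower and 1 higher without overlap. Ephb3 read 7.31 and 7.34 in depleted cells, against 7.72 and 7.33 in control cells, and overlapped (−0.20, and −0.39 without control replicate 2). Ephb4 read 7.28 and 7.73 in depleted cells, against 7.82 and 7.69 in control cells, and overlapped as well (−0.25, and −0.31 without control replicate 2). Epha3, Epha5, Epha7, Epha8, Ephb1 and Ephb6 were under the background by their means over the 4 arrays, at −0.50, 0.30, −0.07, −0.44, 0.13 and −0.29. Control replicate 1 of Ephb6, at 7.15, lay above it. The 2 Ephb1 probe sets pointed different ways, at 0.13 and −0.25.

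**Figure D3:**
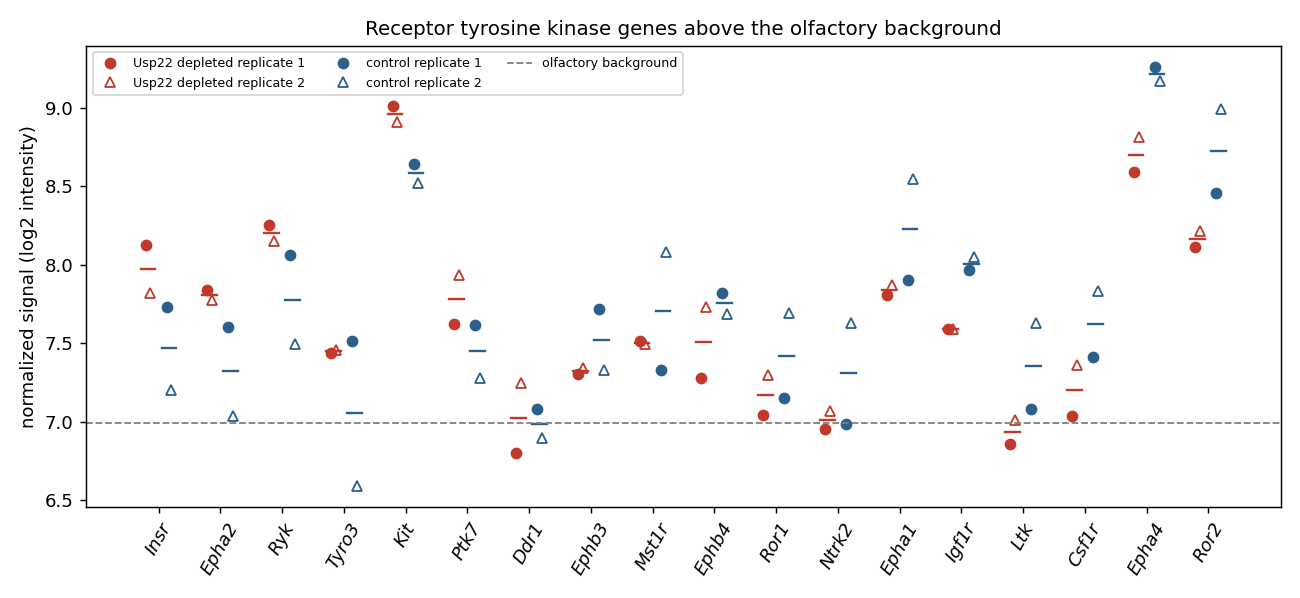
Normalized log2 intensity (vertical axis) of the 18 receptor tyrosine kinase genes above the olfactory background (dashed line, 6.99) on each array, ordered from the highest to the lowest log2 fold change, with Usp22-depleted cells left of control cells and bars at group means of 2 arrays. The groups are separate for Kit, Igf1r and Epha4 with a small spread within each, while control replicate 2 (open blue triangles) stands far from control replicate 1 for Tyro3, Mst1r, Epha1 and Ror2.

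Ror1, Ror2, Ryk and Ptk7 are co-receptors of Wnt signalling, and several of them lack an active kinase. Ror2, a receptor of Wnt5a, read 8.11 and 8.21 in depleted cells, against 8.46 and 8.99 in control cells. Its log2 fold change of −0.56 was the lowest of the 46 (95% interval −1.09 to −0.03, limma adjusted p = 0.201), and it was −0.29 without control replicate 2. Ror1 read 7.04 and 7.30 in depleted cells, against 7.15 and 7.69 in control cells, and overlapped (−0.25, and 0.019 without control replicate 2). Ryk read 8.25 and 8.15 in depleted cells, against 8.06 and 7.50 in control cells (0.42, limma adjusted p = 0.302, and 0.14 without control replicate 2). Ptk7, a regulator of planar cell polarity, read 7.63 and 7.93 in depleted cells, against 7.62 and 7.28 in control cells (0.33, limma adjusted p = 0.404, and 0.16 without control replicate 2). These receptors therefore stood on both sides of 0, and the gap between the nearest Ptk7 arrays of the groups was small. Wnt5a itself was under the background at −0.12.

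The collagen receptor Ddr1 read 6.80 and 7.25 in depleted cells, against 7.08 and 6.90 in control cells, with a log2 fold change of 0.04 (−0.18 to 0.26 with any 1 array left out). Its relative Ddr2 read 6.65 and 5.96 in depleted cells, against 5.98 and 5.35 in control cells (0.64, limma adjusted p = 0.152), and the lower depleted array lay just under the higher control array. Ddr2 ran from 0.29 without depleted replicate 1 to 0.98 without depleted replicate 2, and was 0.33 without control replicate 2. Musk, the receptor of the neuromuscular junction, was under the background at −0.18. Of the receptors best known from neurons and neural crest, Ltk and Ntrk2 were above the background. Ltk read 6.86 and 7.01 in depleted cells, against 7.08 and 7.63 in control cells (−0.42, limma adjusted p = 0.307, and −0.14 without control replicate 2). Ntrk2, the receptor of brain-derived neurotrophic factor, read 6.96 and 7.07 in depleted cells, against 6.99 and 7.63 in control cells (−0.30, and 0.02 without control replicate 2). Alk, Ret, Ros1 and Ntrk3 were under the background by their means over the 4 arrays, though the control mean of Ntrk3, 7.04, was above it. These receptors stood at −0.35, −0.34, −0.22 and −0.21. All 6 genes of this group had values under 0, beside 11440 of all 19938 genes. Gdnf, whose product signals through Ret, read 7.49 and 7.35 in depleted cells, against 7.80 and 8.48 in control cells (−0.72, limma adjusted p = 0.106, and −0.38 without control replicate 2).

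The members' values depended on which control array entered. Without control replicate 1, 10 members rose and 12 fell, where 24.5% of all genes rose and 21.2% fell. That fit has 1 control array and takes its spread from the depleted arrays alone, which lay closer together, so its calls do not include the spread of the control. Without control replicate 2, 0 members rose or fell (6 of 46 at an unadjusted limma p under 0.05, beside 16.1% of all genes), where 0.331% of all genes rose and 0.01% fell. Leaving out 1 array turned the sign of 17 of the other 45 members in at least 1 fit, and of 5588 of all 19938 genes. The control arrays differed by a median of 0.43 for the members, in absolute value, and the depleted arrays by 0.21, beside 0.36 and 0.18 over all genes.

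**Figure D4:**
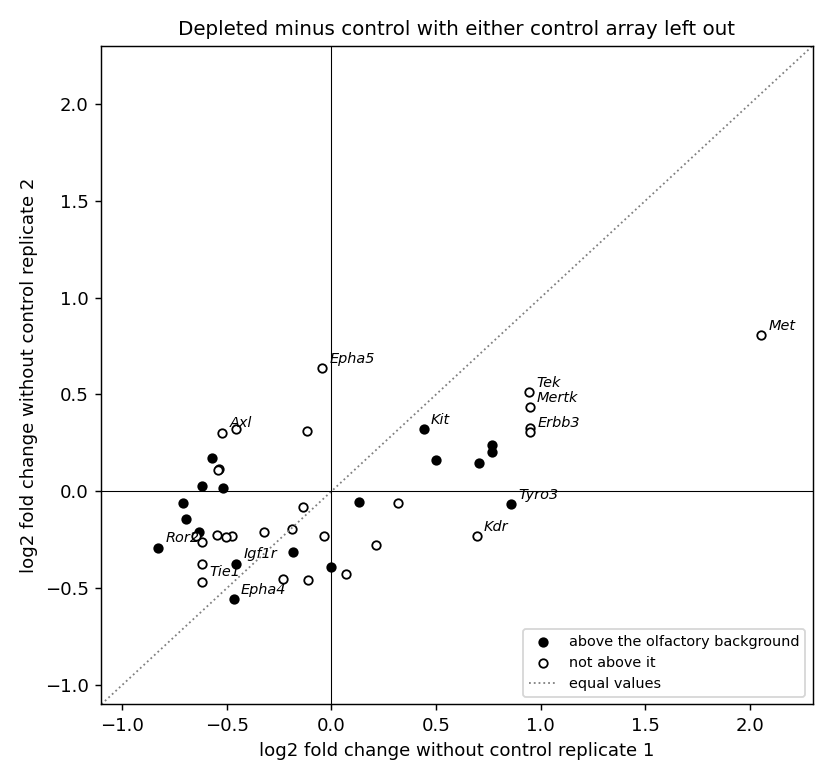
Log2 fold change of each of the 46 genes (depleted minus control) without control replicate 1 (horizontal axis) against the same without control replicate 2 (vertical axis), with filled points for genes above the olfactory background and a dotted line at equal values. The axes share the depleted arrays, and most points lie nearer to 0 on the vertical axis. Met lies at 2.06 and 0.80, while Kit, Igf1r and Epha4 lie near the dotted line.

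Genes of the wider pathway came from lists chosen with earlier results of these data known, and their counts stand beside the 2.62% of all genes that rose and the 0.105% that fell. Of 51 measured ligand genes, 1 rose (Pros1) and 1 fell (Angpt1), with a median of −0.25. Pros1 was not called on unnormalized log2 values, with an intensity trend or with robust settings, and Angpt1 was not called with robust settings, with or without a trend. Igf1 stood at 0.78 and Hbegf, an ErbB ligand, at 0.77, both higher without overlap (limma adjusted p = 0.0797 and 0.0842). With the dimmest 0.25 of genes left out both were called higher, beside 4.94% of genes, and Igf1 also with the replicate number as a block. Gdnf and Nrg1 were called lower with the dimmer 0.5 left out and with only genes above the olfactory background fitted. In those fits 1.48% and 1.53% of genes fell. Of 32 measured adaptor and signalling genes, 3 rose and 0 fell, with a median of 0.09. They were the adaptor gene Nck1 at 0.97, the Ras exchange factor gene Sos1 at 0.90 and Rasa1, which encodes a Ras GTPase-activating protein, at 0.89 (limma adjusted p = 0.0259, 0.0401 and 0.0416). The kinase gene Fyn stood at 0.81 (limma adjusted p = 0.0666). Without control replicate 2, Nck1, Sos1 and Rasa1 stood at 0.65, 0.40 and 0.53, and none was called. On unnormalized log2 values 0 genes of the list were called, with robust settings Nck1 alone rose, and with an intensity trend Rasa1 rose and Gab1 fell.

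Genes listed as negative regulators of the receptors had a median of 0.54, beside −0.12 over all genes. Of 19 measured, 3 rose and 0 fell, beside 2.62% and 0.105% of all genes. Ptprj, a phosphatase that acts on Met and other receptors, read 7.65 and 7.45 in depleted cells, against 6.73 and 5.99 in control cells (log2 fold change 1.19, limma adjusted p = 0.00467). Lrig2 read 7.14 and 7.10 in depleted cells, against 6.36 and 5.51 in control cells (1.18, limma adjusted p = 0.00505), and Lrig3 read 7.52 and 7.40 in depleted cells, against 6.71 and 6.02 in control cells (1.10, limma adjusted p = 0.0101). For each of these 3, both depleted arrays lay above both control arrays and above the olfactory background, and both control arrays lay under it. By the mean over all arrays, the rule used for the members, none of the 3 was above that background. Lrig1, which is known to lower ErbB and Met protein, stood at 0.76, and Grb10, an adaptor that restrains the insulin receptors, at 0.85 (limma adjusted p = 0.0895 and 0.0517). Without control replicate 2, the median was 0.36, and Ptprj, Lrig2 and Lrig3 stood at 0.82, 0.75 and 0.75 with 0 calls in the list. On unnormalized log2 values Lrig3 was not called, and Ptprj and Lrig2 were. With only genes above the olfactory background fitted, 9 of the list were tested and 0 were called, with a median of 0.44. In that fit 6.89% of all genes tested rose and 1.53% fell. With the dimmest 0.25 of genes left out, 4 of 16 rose (Grb10, Lrig2, Lrig3 and Ptprj), beside 4.94% of the genes in that fit. With the dimmer 0.5 left out, 2 of 11 rose (Lrig1 and Ptprj), beside 6.94% of the genes in that fit. Of 12 co-receptor genes, 2 rose and 0 fell, with a median of −0.18. Sort1, a sorting receptor that binds neurotrophin precursors, stood at 0.94 and the Wnt receptor gene Fzd7 at 0.89 (limma adjusted p = 0.0315 and 0.0416), and without control replicate 2 they stood at 0.84 and 0.72 and were not called. Ngfr, the low-affinity neurotrophin receptor gene, stood at −0.65 and Gfra2, which encodes a co-receptor of Ret, at −0.51 (limma adjusted p = 0.146 and 0.237). Gfra2 stood at −0.10 without control replicate 2. On unnormalized log2 values 0 co-receptor genes were called, with robust settings Sort1 alone rose, and with an intensity trend Fzd7 rose and Ngfr fell.

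The remaining marker lists did not hold a gene that rose or fell. Fibroblast markers had 5 of 9 genes above the olfactory background and summed intensities of 1202 and 1261 in depleted cells, against 1265 and 1704 in control cells. Neural markers had 5 of 10 above it, with sums of 2295 and 2285 in depleted cells, against 2217 and 2535 in control cells. Epithelial markers had 8 of 10 above it, with sums of 2985 and 3279 in depleted cells, against 3165 and 3259 in control cells. In the pluripotency, fibroblast, neural, endothelial and haematopoietic lists control replicate 2 had the highest sum. Their part in the members' values was not tested.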

How the data were processed

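RNA of 4 samples was measured on 1-colour Affymetrix arrays. For 28856 probe sets, the authors deposited linear intensity values, 1 for each array. How they summarised, background-corrected and normalized them is not given in the sources used here. Total RNA was extracted with Trizol and a column and biotin-labelled as cDNA, per the labels' protocols. Here log2 was taken of the deposited values, and the arrays were quantile-normalized. GEO's platform annotation, which can be old, gave 1 symbol to 21789 probe sets, several to 1621 and none to 5446. For the 999 genes with several, the brightest was kept. The test was limma's moderated linear model (version 3.58.1, R 4.3.3, 2 groups, 2 residual degrees of freedom, two-sided, adjusted p under 0.05 over 19938 genes). Deposited log2 values moved the median of all genes to −0.24 and median-centred arrays to −0.09, against −0.12 here. Members and lists were chosen with earlier results of these data known. All members may be named, with values on every array for those called, above the olfactory background, or without overlap and at least 1.5-fold apart. Of each pathway list, called genes and up to 4 with the lowest p were named, and Usp22 always. Genes outside this rule (Tie1, Pdgfra, Ddr2 and ligands or regulators of named receptors) were chosen after their values were seen. The number of arrays limits the precision.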

Additional observations from a re-analysis of the deposited data

How the results depend on the processing

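With 2 arrays a group and dim signals, the number of arrays limits every value. Met stayed past the test in all 7 settings outside the array omissions that kept it, from 1.31 on unnormalized log2 values to 1.45 on median-centred arrays. It is not tested when dim genes are left out, where 0 members rose (dimmest 0.25 left out, dimmer 0.5 left out, and only genes above the olfactory background). Of all genes tested in these fits, 4.94%, 6.94% and 6.89% rose. Leaving out 1 array gave a range of 0.80 to 2.06 for Met and −1.15 to −1.09 for Usp22, 0 to 10 members higher, 0 to 12 members lower, 0 to 4884 of all genes higher and 0 to 4236 lower. Without either depleted array Usp22 also lost its call. Of all genes, 75 rose and 10 fell on unnormalized log2 values, and 927 rose and 20 fell with median-centred arrays. With an intensity trend 326 rose and 286 fell, with robust settings 295 rose and 11 fell, and with both 381 rose and 339 fell. With dim genes left out, in the order above, 739, 692 and 671 rose and 36, 148 and 149 fell. With the replicate number as a block, 856 rose and 42 fell, and among members Met alone was called. Same-numbered arrays deviated with a correlation of 0.10 across genes, and the labels do not say that the numbers pair the arrays. With 1 array left out, these uncalled members crossed 0: Axl (−0.52 to 0.30), Ddr1 (−0.18 to 0.26), Epha5 (−0.044 to 0.64), Epha7 (−0.46 to 0.32), Ephb1 (−0.078 to 0.34), Erbb2 (−0.31 to 0.10), Flt3 (−0.43 to 0.36), Flt4 (−0.12 to 0.31), Insrr (−0.37 to 0.10), Kdr (−0.23 to 0.69), Mst1r (−0.57 to 0.17), Musk (−0.43 to 0.072), Ntrk2 (−0.62 to 0.025), Ntrk3 (−0.54 to 0.11), Ror1 (−0.52 to 0.019), Ros1 (−0.54 to 0.11) and Tyro3 (−0.066 to 0.86). On unnormalized log2 values Ddr1, Ephb1 and Flt4 stood at −0.10, −0.059 and −0.069, Ephb1 also at −0.059 by the mean of its probe sets, and Flt3 at 0.00013 with median-centred arrays. The causes were not tested.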
